A study of Caenorhabditis elegans with 12 samples.

Results

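Whole Caenorhabditis elegans exposed to 10000 ng/g AO168=O, the highest concentration in the series, were compared with solvent controls. AO168=O is an organophosphate ester formed when a phosphite antioxidant of plastics is oxidised. Both groups were N2 Bristol worms, kept at 25 °C on agar with Escherichia coli OP50, exposed from the egg for about 46 h and collected as L4 larvae. The 10000 ng/g group had AO168=O in the agar and the control group had none (0 ng/g), while the agar of both held 0.01% ethanol. Each group had 3 libraries of polyadenylated RNA from about 1000 pooled worms each, described in the series as independent biological replicates and labelled with the same batch, so 6 of the 12 libraries of the series are compared. The members are all genes that passed a low-count filter, 16665 of the 46987 features in the count table. The question is which transcripts respond to the compound at this concentration.

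Several gene systems of the worm give background to the values. Members of the pals family, named for a protein signature called ALS2CR12, are known for their induction by microsporidia and by Orsay virus, in a programme called the intracellular pathogen response. In that programme the paralogs pals-22 and pals-25 act as a repressor and an activator, the bZIP factor ZIP-1 drives a subset of the genes, and CUL-6 forms a ubiquitin ligase with Skp-related proteins. Foreign compounds are met by cytochromes P450, glutathione S-transferases, glucuronosyltransferases and efflux pumps. Monomethyl branched-chain fatty acids are made in the worm from leucine-derived starters by acetyl-CoA carboxylase, fatty acid synthase and the elongases ELO-5 and ELO-6. The gonad of the L4 hermaphrodite makes sperm before it switches to oocytes, so the content of gamete transcripts changes quickly at this stage. Organophosphates as a class are known for acting on acetylcholinesterases.

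Total counts were 36897811 to 45382586 in the 10000 ng/g libraries and 37884563 to 41446642 in the control libraries. The first principal component of the 6 libraries held 45% of the variance and placed the exposed libraries at -27.5, -19.2 and -55.2 and the controls at 23.8, 22.2 and 55.8. Markers of all 9 sets examined, for cell types and for the adult cuticle, were detected in every library. Their summed levels were lower in all 3 exposed libraries for germ line (812.9 to 932.9 CPM, against 1102 to 1272 CPM in controls), sperm (362.8 to 725.3 CPM, against 912.6 to 2008 CPM), oocytes (115.3 to 161.3 CPM, against 198 to 267.8 CPM) and adult cuticle (658.1 to 911.3 CPM, against 1106 to 1928 CPM). They were higher for neurons (1290 to 1336 CPM, against 1039 to 1083 CPM in controls) and pharynx (1421 to 1790 CPM, against 1004 to 1342 CPM), and overlapped for intestine, body-wall muscle and hypodermis. CPM is the count scaled to the TMM-adjusted library size. In RNA of whole worms, fewer cells of a type and less RNA per cell cannot be told apart. The part of these shifts in the single-gene results was not tested. The neuron, germ-line, sperm, oocyte and adult cuticle sets share genes with lists given below, so those lists are not separate evidence.

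Relative to control worms, 35 genes rose and 7 fell at 10000 ng/g with edgeR's quasi-likelihood test at a Benjamini-Hochberg adjusted p under 0.05. That is 0.252% of the 16665 genes tested, 0.21% higher and 0.042% lower. The genes that rose were led by members and relatives of the pals family, by gst-19 and by the elongase genes elo-5 and elo-6. The genes that fell included asb-1, nduf-2.2 and iff-1. Fold changes of the genes that rose ran from 1.39 to 13.99, with a median of 2.67, and log2 fold changes of the genes that fell ran from -2.33 to -0.58. At an unadjusted p under 0.05 edgeR had 1558 genes higher (9.35%) and 1868 lower (11.2%). In all 42 genes the groups did not overlap, which their selection on these libraries favours. Among all genes tested 16% lay wholly above the controls and 18.3% wholly below. Over all genes tested the median log2 fold change was -0.01.

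The number of genes past the threshold changed with the libraries in the fit. Leaving out 10000 ng/g replicate 1, 2 or 3 gave 5, 8 and 8 higher genes and 0 lower genes each. Leaving out control replicate 1, 2 or 3 gave 4, 8 and 4 higher genes and 0, 1 and 0 lower genes. Libraries of the other doses are in the fit too, and without 400 ng/g replicate 1 the counts were 336 higher and 187 lower, over 16943 genes tested. Each such fit also changed the filter, and the cause of these moves was not tested. Without 400 ng/g replicate 2 or 3 they were 28 and 15 higher and 6 and 1 lower, and without 2000 ng/g replicate 1, 2 or 3 they were 10, 15 and 31 higher and 0, 1 and 16 lower. Of the 42 genes, 5, 8 and 8 kept their call without 10000 ng/g replicate 1, 2 and 3, and 4, 9 and 4 kept it without control replicate 1, 2 and 3. The genes gst-19, ddn-1, B0507.8 and F42C5.3 kept it in 12 of 12 such fits, with a highest edgeR adjusted p of 0.0415. A fit of the 6 compared libraries alone put 245 genes above control (1.52% of 16157) and 186 below (1.15%), and DESeq2 put 546 above (3.28%) and 560 below (3.36%). All 42 genes were also called by each of these, and 199 higher and 156 lower genes were called by both. With library totals in place of TMM scaling 15 of the 42 passed, and with a replicate block 12 of the 42, none of them among the 7 that fell.

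**Figure D1:**
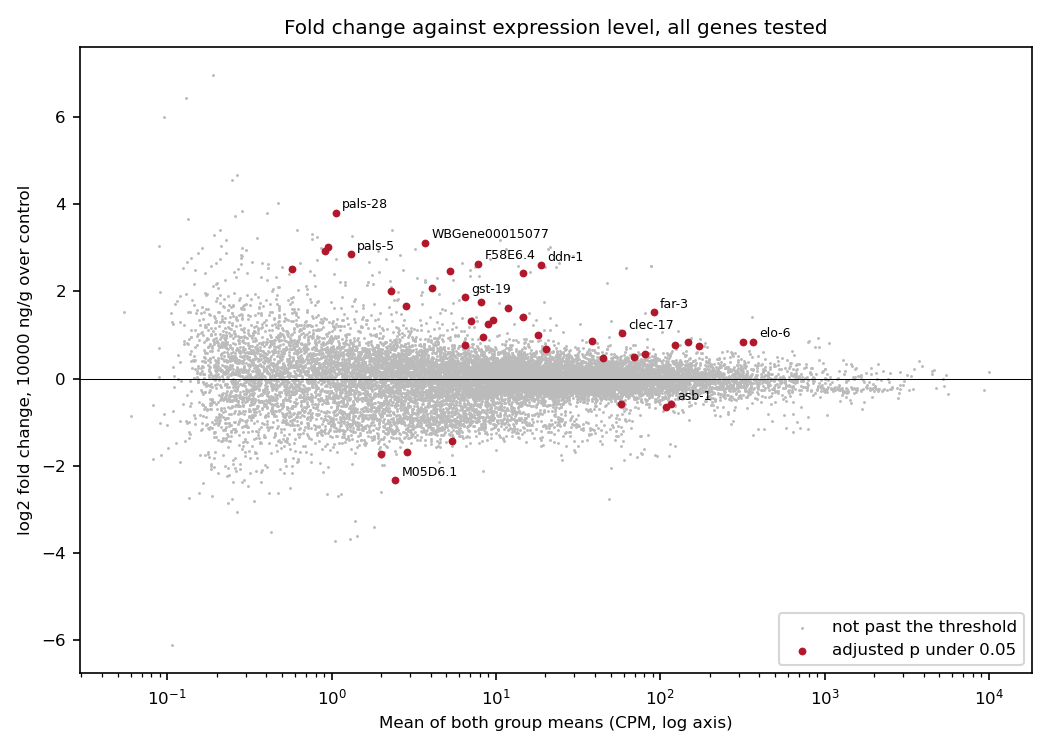
Each point is 1 of the 16665 genes tested, with the mean of both group means in CPM on the log x axis and the log2 fold change, 10000 ng/g over control, on the y axis. The 42 genes past the edgeR threshold (red) lie between 0.576 and 365 CPM, with none among the most abundant genes, and 35 of them lie above 0.

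Genes of the pals family were the largest group among those that rose. The edgeR call was made for 7 of 32 tested members and for none in the other direction, against 0.21% of all genes. The median log2 fold change of the family was 1.402, 30 of 32 values were positive, and in 23 members (71.9%) all exposed libraries lay above all controls, against 16% of all genes. The summed level of the family was 180.6 to 212.5 CPM in the 10000 ng/g libraries and 84.65 to 104.8 CPM in the control libraries. The 6-library fit called 13 members higher, against 1.52% of its genes, and DESeq2 called 18 (56.2%), against 3.28% of all genes. No member was called lower by these fits. The functions of most pals proteins are not known.

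The smallest p among pals genes was that of pals-6 (WBGene00007660), with 23.7, 22.6 and 17.9 CPM in the 10000 ng/g libraries, against 7.42, 8.19 and 8.40 CPM in the control libraries. Its log2 fold change was 1.419 ± 0.17 (SE) with an edgeR adjusted p of 0.00746. The neighbouring pals-14 (WBGene00009061) had 20.7, 17.7 and 15.4 CPM in exposed worms, against 4.65, 7.48 and 5.34 CPM in controls. In both genes every exposed library lay above every control. The members pals-4 (WBGene00007658) and pals-5 (WBGene00007659) had 1.62 ± 0.377 and 2.297 ± 0.468 CPM in exposed worms and 0.211 ± 0.106 and 0.314 ± 0.209 CPM in controls (SD, n = 3). These 4 genes lie within 28412 bases of chromosome I. Their sequences were not compared, and whether reads are shared among them was not tested. On the opposite strand pals-4 is overlapped by pals-3, at 2.33 on the log2 scale (edgeR adjusted p = 0.116). Reads of that pair cannot be told apart without strand.

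On other chromosomes, pals-33 (WBGene00021081, chromosome V, 3673380 to 3676632) had 14.9, 11.8 and 11.04 CPM in exposed worms, against 2.38, 5.31 and 3.52 CPM in controls. The fold change of pals-28 (WBGene00007134, chromosome III, 4384787 to 4387757) was 13.99, the largest among the 42 genes, at 2.00, 3.07 and 0.880 CPM in the exposed libraries and 0.277, 0.0952 and 0.0518 CPM in the controls. The exposed replicate 3 was the lowest of its group for both genes. The member pals-29 (WBGene00012091, chromosome IV, 14539685 to 14542617) had 1.70 ± 0.165 CPM in exposed worms and 0.209 ± 0.115 CPM in controls (SD, n = 3). The member pals-26 on chromosome III had 11.4, 11.3 and 12.58 CPM in exposed worms against 2.08, 2.38 and 1.81 CPM in controls but did not pass (log2 fold change 2.49 ± 0.49, edgeR adjusted p = 0.0679). It passed in the 6-library fit (adjusted p = 0.00241). At 400 ng/g pals-26 had a spread of 3.04 CPM around a mean of 3.54 CPM.

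Within the family, members on different chromosomes differed in size of change. The 11 tested members on chromosome I had a median log2 fold change of 1.77 (range 0.53 to 2.94), and 10 of them had groups that did not overlap. The 7 members on chromosome V had a median of 1.397 and 6 without overlap. The 12 members on chromosome III had a median of 0.38 (range -0.05 to 3.81) and 5 without overlap, with pals-26, pals-27 and pals-28 at 1.79 or more and pals-16, pals-18 and pals-19 between -0.05 and 0.03. All members without overlap lay above the controls, as did 16% of all genes tested. These medians and counts describe the members and were not compared by a test.

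The relatives and regulators of the pals genes moved in part. Among 17 tested genes of the intracellular pathogen response outside the family, 3 rose and none fell with edgeR, at a median log2 fold change of 0.56. In 14 of them (82.4%) all exposed libraries lay above all controls, against 16% of all genes. The neighbours ddn-1 (WBGene00015227) and B0507.8 (WBGene00015225) lie on the minus strand of chromosome V, 106 bases apart. The first had 35.9, 36.2 and 24.5 CPM in exposed worms, against 5.53, 6.69 and 3.76 CPM in controls. The second had 25.5, 27.3 and 20.8 CPM, against 4.15, 4.76 and 4.90 CPM. Both genes were lowest in exposed replicate 3, which still lay far above the highest control. Outside this list F42C5.3 (WBGene00018345, chromosome IV, 7286097 to 7287574), whose product carries the same protein signature, had 9.48, 8.45 and 8.66 CPM in exposed worms, against 1.27, 1.64 and 1.89 CPM in controls. Its log2 fold change was 2.46 ± 0.26 (SE) with an edgeR adjusted p of 0.00294.

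T08E11.1 (WBGene00020357, chromosome II, 1836504 to 1840363), for a protein with an FTH domain, had 6.46, 7.37 and 6.08 CPM at 10000 ng/g, against 1.44, 1.71 and 1.55 CPM in controls (log2 fold change 2.08 ± 0.25, edgeR adjusted p = 0.00746). It did not pass without control replicate 1 (adjusted p = 0.0615) or control replicate 3, and pals-6 did not pass without those or without 10000 ng/g replicate 1 (adjusted p = 0.0555). Among genes that did not pass, F57G4.11 had a log2 fold change of 2.72 ± 0.54 at under 2 CPM and eol-1, a decapping exonuclease relative, of 1.398 ± 0.31 (edgeR adjusted p = 0.0679 and 0.0847). The Skp-related adaptor genes skr-4 and skr-5 had 0.56 ± 0.12 and 0.49 ± 0.21, and cul-6 had 6.13 ± 0.537 CPM in exposed worms and 4.111 ± 0.547 CPM in controls (edgeR adjusted p = 0.144). Of the regulators, zip-1 had 46.1, 46.0 and 42.1 CPM in exposed worms, against 30.8, 34.2 and 30.2 CPM in controls, without overlap (edgeR adjusted p = 0.0817, and 0.0465 in the 6-library fit). The repressor pals-22 had a log2 fold change of 0.21 (95% interval -0.13 to 0.55) and the activator pals-25 of 0.72 (0.25 to 1.20). The viral RNA sensor drh-1 had 0.02 ± 0.14 and pnp-1, for a purine nucleoside phosphorylase, -0.05 ± 0.15.

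**Figure D2:**
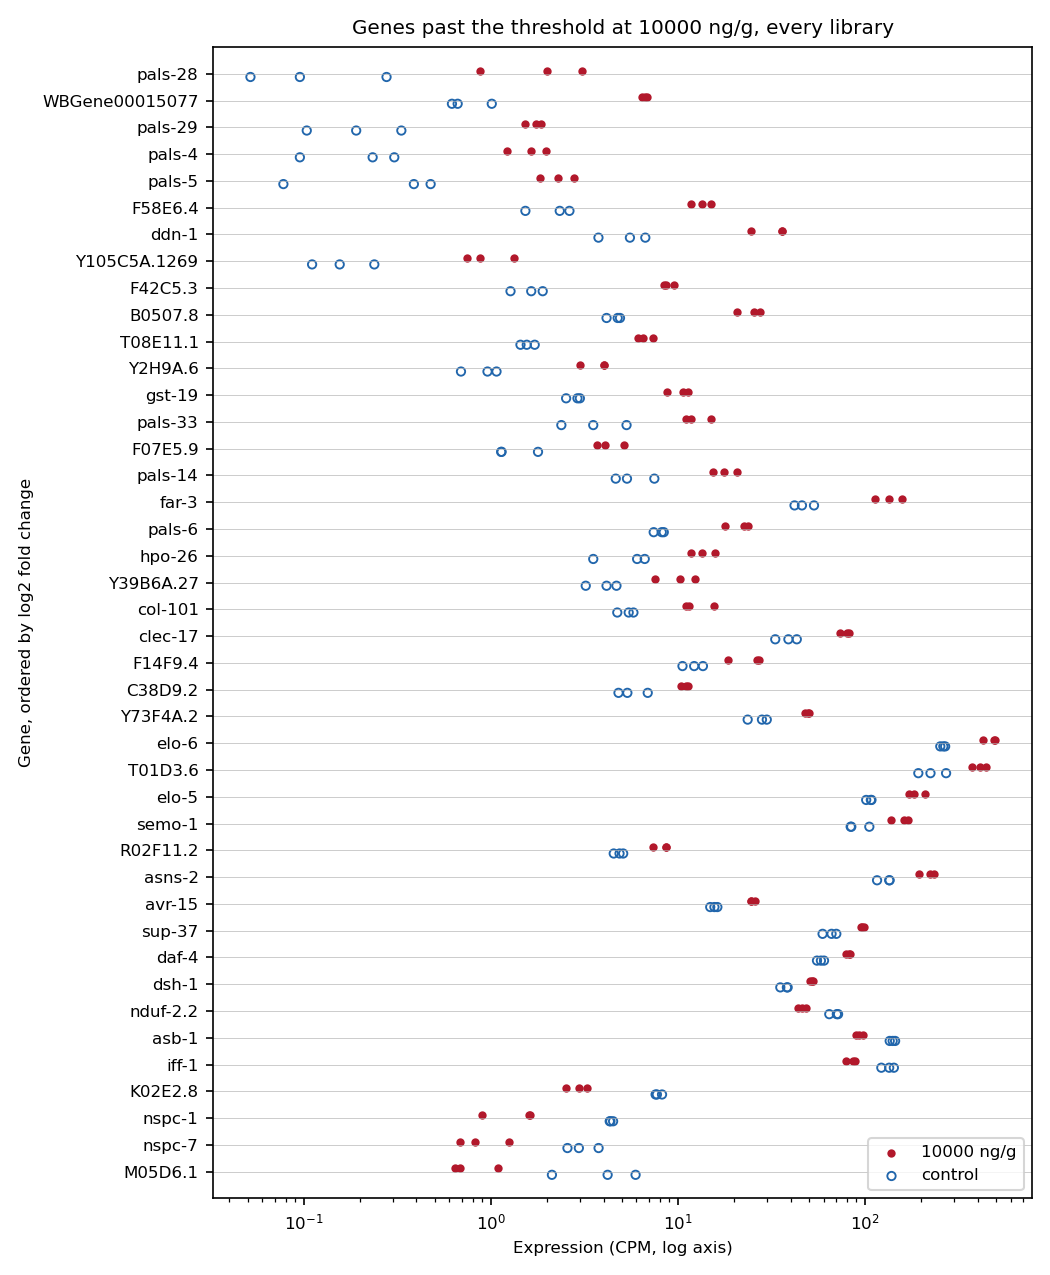
The level in CPM (log x axis) of the 42 genes past the threshold in each library, 10000 ng/g as filled red points and control as open blue circles, with genes ordered by log2 fold change from pals-28 at the top to M05D6.1 at the bottom. In no gene do the points of the groups overlap, and the genes with the largest rises are at low CPM in the controls.

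Among enzymes that act on foreign compounds, gst-19 (WBGene00001767, chromosome II, 13625545 to 13627145) was the single gene that passed. The glutathione S-transferases, which couple glutathione to electrophiles, had this 1 member called among 44, with a median log2 fold change of 0.01. Above all controls lay 6 members (13.6%), against 16% of all genes. The level of gst-19 was 11.3, 8.69 and 10.6 CPM in exposed worms, against 2.99, 2.52 and 2.90 CPM in controls, a fold change of 3.64 (edgeR adjusted p = 0.00294). The exposed libraries lay well above the controls and did not overlap them. The markers gst-4 and gcs-1, known targets of the oxidative stress factor SKN-1, had log2 fold changes of 0.16 (95% interval -0.27 to 0.58) and 0.03 (-0.18 to 0.24). The member gst-10 had 33.2, 31.7 and 46.4 CPM in exposed worms, against 84.6, 51.8 and 33.0 CPM in controls, which overlap.

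No cytochrome P450 (70 tested), glucuronosyltransferase (63), ABC transporter (52), nuclear hormone receptor (203) or flavin monooxygenase and short-chain dehydrogenase gene (35) passed with edgeR. Their median log2 fold changes were 0.11, 0.10, 0.15, 0.16 and -0.01, and the shares of members above all controls were 24.3%, 20.6%, 30.8%, 21.7% and 22.9%, against 16% of all genes. DESeq2 called 3, 3, 6, 7 and 4 members of these lists higher, or 4.29%, 4.76%, 11.5%, 3.45% and 11.4%, against 3.28% of all genes, and 1, 1, 2, 1 and 1 lower. At an unadjusted edgeR p under 0.05 the shares of higher members were 11.4%, 12.7%, 26.9%, 11.8% and 14.3%, against 9.35% of all genes. Those of the P450, glucuronosyltransferase and receptor lists were near this background. The shares of lower members were 2.86%, 4.76%, 7.69%, 1.48% and 8.57%, each under the 11.2% of all genes. Called by both DESeq2 and the 6-library fit, besides fmo-2, were the dehydrogenase gene dhs-19 (0.62 ± 0.15), the transporter genes pgp-10 (0.70 ± 0.14) and mrp-2 (0.48 ± 0.13), the receptor genes nhr-62 (0.90 ± 0.24) and nhr-22 (0.58 ± 0.15), and on the low side wht-4 (-1.25 ± 0.36). The flavin monooxygenase gene fmo-2 had 178, 111 and 129 CPM in exposed worms, against 79.0, 61.5 and 59.3 CPM in controls, and the manganese superoxide dismutase gene sod-3 had 41.2, 27.3 and 36.0 CPM, against 15.5, 14.4 and 19.8 CPM. Neither overlapped and neither passed with edgeR (adjusted p = 0.111 and 0.112), while both passed in the 6-library fit (adjusted p = 0.0463 each). The P450 gene cyp-35A2, often used as a marker of xenobiotic exposure, had 47.7 ± 8.21 CPM in exposed worms and 53.8 ± 11.9 CPM in controls, and cyp-35B1 had 6.23 ± 0.463 and 2.79 ± 1.80 CPM (SD, n = 3). The values of cyp-14A3, ugt-22 and nhr-8 were -0.50 (95% interval -1.57 to 0.56), -0.50 (-1.59 to 0.59) and 0.10 (-0.12 to 0.32) on the log2 scale. Without control replicate 1 ugt-22 was at 0.06179, and without control replicate 3 cyp-35A2 was at 0.02031.

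In fatty acid metabolism, the elongase genes of the branched-chain route rose. Gene elo-6 (WBGene00001244, chromosome IV, 5386629 to 5388559) had 491, 425 and 494 CPM at 10000 ng/g, against 268, 252 and 262 CPM in controls. Gene elo-5 (WBGene00001243), 9512 bases away on the same strand, had 208, 172 and 184 CPM, against 108, 107 and 101.4 CPM. Their fold changes were 1.80 and 1.78 (edgeR adjusted p = 0.027 and 0.0167), both were lowest in exposed replicate 2, and elo-5 and elo-6 kept their calls in 7 and 5 of the 12 fits without 1 library. Neither passed without 10000 ng/g replicate 1, where edgeR gave elo-5 an adjusted p of 0.123 and elo-6 one of 0.169. The acetyl-CoA carboxylase gene pod-2 had 1180.0, 1102 and 1198 CPM, against 606, 735 and 762 CPM, without overlap and with an edgeR adjusted p of 0.0521. Along the same route sptl-1, for serine palmitoyltransferase, had a log2 fold change of 0.41 ± 0.13, let-767 of 0.31 ± 0.14, bcat-1, for the first step of leucine breakdown, of 0.24 ± 0.10 and the fatty acid synthase gene fasn-1 of 0.23 ± 0.17. The acyl-CoA synthetase gene acs-1 had 0.21 ± 0.24. In this list of 18 genes 2 rose, none fell and the median was 0.18. Above all controls lay 7 (38.9%), against 16% of all genes. The subunits bckd-1A, bckd-1B and dbt-1 of the branched-chain ketoacid dehydrogenase had -0.27 ± 0.25, -0.18 ± 0.18 and -0.13 ± 0.22, each with overlapping groups.

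Other lipid genes moved less uniformly. None of the 18 desaturases, other elongases and their regulators passed with edgeR, and their median log2 fold change was 0.22. Above all controls lay 7 (38.9%) and below them 2 (11.1%), against 16% and 18.3% of all genes. The desaturase gene fat-5 had 25.6, 26.4 and 39.2 CPM in exposed worms, against 9.02 ± 5.69 CPM (SD, n = 3) in controls, with a log2 fold change of 1.75 ± 0.87 and no overlap, but with a wide spread in both groups. The stearoyl desaturase genes fat-6 and fat-7 had 0.25 (95% interval -0.14 to 0.64) and -0.62 (-1.60 to 0.37). Among lipid binding proteins far-3 (WBGene00001387, chromosome V, 12996787 to 12997522), whose product binds fatty acids and retinol, had 135, 113 and 157 CPM, against 53.4, 46.0 and 41.98 CPM (fold change 2.86, edgeR adjusted p = 0.0404), and was the 1 member of 18 that passed. The overlapping far-5 on the opposite strand had a log2 fold change of -0.20, and elo-5 is overlapped by F41H10.3 at -0.12. Of 58 genes for fatty acid oxidation and lipases none passed with edgeR and the median was -0.09, with 10 (17.2%) above and 14 (24.1%) below all controls. At an unadjusted edgeR p under 0.05 that list had 10.3% of its members higher and 13.8% lower, and the desaturase list 11.1% each, near the 9.35% and 11.2% of all genes.

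The other genes that rose are grouped here by their deposited descriptions, after their values were seen. F58E6.4 (WBGene00010253, chromosome V, 9749872 to 9750408), whose deposited description gives an activin receptor domain, had 11.8, 13.5 and 15.1 CPM in exposed worms, against 2.63, 2.33 and 1.53 CPM in controls, a fold change of 6.21 (edgeR adjusted p = 0.0139). The C-type lectin gene clec-17 (WBGene00008477) had 79.6, 82.5 and 73.8 CPM, against 38.9, 43.2 and 33.1 CPM (edgeR adjusted p = 0.0346). It was the 1 lectin of 146 tested that passed, in a list with a median log2 fold change of 0.09. T01D3.6 (WBGene00011330, chromosome V, 13716824 to 13720414), with a von Willebrand factor type D domain, had 412, 442 and 372 CPM, against 224, 271 and 193 CPM. The exposed libraries of these genes differed among themselves by less than their distance to the controls.

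The gene hpo-26 (WBGene00018492, chromosome V, 6532071 to 6533060) had 15.9, 13.4 and 11.8 CPM in exposed worms, against 6.64, 6.05 and 3.52 CPM in controls, and lies over part of acs-1 on the opposite strand. Y73F4A.2 (WBGene00013515, chromosome IV, 9042387 to 9043347), with a DOMON domain, had 50.2, 49.5 and 47.8 CPM, against 28.1, 29.8 and 23.6 CPM. R02F11.2 (WBGene00019840, chromosome V, 4794599 to 4797112), with a CX domain, had 8.1996 ± 0.766 CPM in exposed worms and 4.83 ± 0.282 CPM in controls (SD, n = 3). Fold changes were 2.53, 1.81 and 1.70 (edgeR adjusted p = 0.037, 0.0399 and 0.0476).

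The cuticle collagen gene col-101 (WBGene00000675, chromosome IV, 325435 to 327020) had 15.5, 11.4 and 11.1 CPM at 10000 ng/g, against 5.45, 4.74 and 5.78 CPM in controls (fold change 2.38, edgeR adjusted p = 0.0121). The overlapping drl-1 on the opposite strand had a log2 fold change of 0.06. As a list the 159 collagens pointed the other way, with a median log2 fold change of -0.37. Above all controls lay 7 members (4.4%) and below them 48 (30.2%), against 16% and 18.3% of all genes. DESeq2 called 5 collagens higher (3.14%) and 10 lower (6.29%), against 3.28% and 3.36% of all genes, so the higher share was near the background. Both DESeq2 and the 6-library fit called col-42, col-98 and col-103 higher (0.81 to 0.93) and col-73, col-104, col-109, col-110 and col-150 lower (-0.98 to -0.68). The 6 adult cuticle genes had a median of -1.23, with bli-1, bli-2 and col-63 below all controls. The adult collagen gene col-19 had 6.89, 24.4 and 2.83 CPM in exposed worms, against 21.4, 19.8 and 73.4 CPM in controls, so the groups overlapped. None of the 6 furrow collagens passed, at a median of -0.27.

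Further genes that rose encode enzymes. The asparagine synthetase gene asns-2 (WBGene00019730, chromosome X, 8748434 to 8750941) had 222, 194 and 233 CPM, against 116, 135 and 135 CPM in controls (fold change 1.68, edgeR adjusted p = 0.037). The methanethiol oxidase gene semo-1 (WBGene00012538, chromosome IV, 14051200 to 14056717) had 169, 161 and 137 CPM, against 84.4, 105 and 83.8 CPM. A pseudogene with a carboxylesterase domain, WBGene00015077 (chromosome V, 5243815 to 5248021), had 6.87, 6.68 and 6.42 CPM in exposed worms, against 0.664, 0.619 and 1.011 CPM in controls. Its fold change of 8.68 (edgeR adjusted p = 0.027) was the second largest after that of pals-28, with nearly equal exposed libraries.

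Several called genes of signalling and regulation had smaller rises. The type II TGF-beta receptor gene daf-4 (WBGene00000900, chromosome III, 5625135 to 5632323) had 82.5, 83.2 and 78.8 CPM in exposed worms, against 60.4, 58.1 and 55.4 CPM in controls. The Dishevelled gene dsh-1 (WBGene00001101, chromosome II, 5214400 to 5225384), of Wnt signalling, had 51.9, 50.9 and 52.4 CPM, against 38.6, 38.2 and 35.2 CPM. The glutamate-gated chloride channel gene avr-15 (WBGene00000233, chromosome V, 13498780 to 13511718) had 25.8, 24.5 and 24.7 CPM, against 15.7, 16.24 and 14.9 CPM. Fold changes were 1.41, 1.39 and 1.60, each with an edgeR adjusted p of 0.0476, and the exposed libraries of each gene lay close together. The zinc finger gene sup-37 (WBGene00006342, chromosome V, 8786545 to 8792781) had 96.2 ± 1.84 CPM in exposed worms and 65.2 ± 5.53 CPM in controls (SD, n = 3), and its overlapping opposite-strand gene magu-2 stood at 0.62 on the log2 scale and did not pass (edgeR adjusted p = 0.0842), so reads of the pair cannot be told apart without strand. For avr-15 and daf-4 the overlapping genes gut-2 and C05D2.11 had -0.32 and 0.36.

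Genes of ubiquitin ligase type and of unknown function complete the genes that rose. F14F9.4 (WBGene00017467, chromosome V, 5132741 to 5137118), with an IBR domain, had 27.3, 26.5 and 18.5 CPM in exposed worms, against 10.6, 13.6 and 12.2 CPM in controls. C38D9.2 (WBGene00008010, chromosome V, 17567150 to 17571742), with a RING domain, had 10.9 ± 0.437 CPM in exposed worms and 5.69 ± 1.08 CPM in controls (SD, n = 3). Y39B6A.27 (WBGene00012686, chromosome V, 19031756 to 19035255), related to UNC-93, had 10.3, 12.33 and 7.57 CPM, against 4.15, 4.69 and 3.21 CPM. For the first and the last of these the exposed replicate 3 was the lowest, though above every control. F07E5.9 (WBGene00017214, chromosome II, 2076170 to 2080525), with an SPK domain, had 4.08, 5.13 and 3.68 CPM, against 1.13, 1.79 and 1.14 CPM. The predicted transmembrane genes Y2H9A.6 (WBGene00086568, chromosome V, 13443835 to 13445055) and WBGene00194645 (chromosome IV, 15847396 to 15848086) had 3.67 ± 0.592 and 0.983 ± 0.304 CPM in exposed worms and 0.907 ± 0.195 and 0.168 ± 0.0646 CPM in controls (SD, n = 3).

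By chromosome, 16 of the 42 genes lie on chromosome V, 0.449% of the 3560 genes tested there. The shares were 0.284% on chromosome IV, 0.202% on III, 0.191% on I, 0.177% on II and 0.127% on X, and none of the 13 mitochondrial genes was called.

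Of the 7 genes that fell, 3 are germ-line forms or paralogs of widely expressed genes. The ATP synthase subunit gene asb-1 (WBGene00000206, chromosome III, 4594543 to 4595821) had 89.1, 97.6 and 93.0 CPM in exposed worms, against 145, 140.5 and 135 CPM in controls. The complex I gene nduf-2.2 (WBGene00006463, chromosome III, 6465222 to 6467206) had 43.6, 48.2 and 46.3 CPM, against 64.4, 70.7 and 71.8 CPM. The translation factor eIF5A gene iff-1 (WBGene00002064, chromosome III, 9745862 to 9747193) had 79.5, 86.7 and 88.0 CPM, against 135, 122 and 143 CPM. Log2 fold changes were -0.59 ± 0.10, -0.58 ± 0.10 and -0.65 ± 0.11 (SE; edgeR adjusted p = 0.0399, 0.0404 and 0.0476). The paralogs asb-2, gas-1 and iff-2, looked up after these values were seen, had 0.01 (95% interval -0.34 to 0.36), 0.06 (-0.34 to 0.46) and -0.08 (-0.50 to 0.34). Over 50 respiratory chain genes of the nuclear genome the median was -0.03, and no member other than asb-1 and nduf-2.2 passed. The difference between a germ-line form and its paralog was not tested.

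The other genes that fell had low counts. The nematode-specific peptide genes nspc-1 (WBGene00023477) and nspc-7 (WBGene00015392), 6756 bases apart on chromosome X, had 0.893, 1.60 and 1.63 CPM and 1.25, 0.688 and 0.826 CPM in exposed worms, against 4.32, 4.50 and 4.35 CPM and 3.76, 2.95 and 2.57 CPM in controls. Reads of these similar genes may be shared among copies. M05D6.1 (WBGene00010874, chromosome II, 8473819 to 8475406), with a protein kinase domain, had 1.08, 0.688 and 0.640 CPM, against 4.21, 2.12 and 5.93 CPM (log2 fold change -2.33 ± 0.41, edgeR adjusted p = 0.0476), with wide spread among controls. K02E2.8 (WBGene00010509, chromosome V, 20365708 to 20366939) had 2.53, 2.95 and 3.25 CPM, against 8.22, 7.71 and 7.59 CPM, and is overlapped on the opposite strand by grd-11, at -1.69 (edgeR adjusted p = 0.0934).

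Gamete and germ-line genes were lower in exposed worms as lists, with few or no single calls. The gene products here are the major sperm proteins, the cytoskeletal proteins of the crawling nematode sperm, other spermatogenesis proteins, oocyte and eggshell proteins, and proteins of germ granules and meiosis. The 29 named msp genes had a median log2 fold change of -1.33, and 28 (96.6%) lay below all controls, against 18.3% of all genes. No msp gene passed with edgeR, where 27 (93.1%, against 11.2% of all genes) had an unadjusted p under 0.05 on the low side. The 6-library fit called 3 lower, against 1.15% of its genes, and DESeq2 18 (62.1%), against 3.36% of all genes. The example msp-152 had 16.52, 21.2 and 10.96 CPM in exposed worms, against 41.5, 33.6 and 66.5 CPM in controls (log2 fold change -1.54 ± 0.45, edgeR adjusted p = 0.122). Reads of the near-identical msp copies cannot be assigned with certainty.

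Other spermatogenesis genes had a median log2 fold change of -1.06 over 55 genes, with 42 (76.4%) below all controls, against 18.3% of all genes. This list had no edgeR call. The 6-library fit called 5 lower, against 1.15% of its genes, and DESeq2 17 (30.9%), against 3.36% of all genes. The example spe-9, for a sperm surface protein needed at fertilisation, had -1.0013 ± 0.30. Over 28 genes of oogenesis and the eggshell the median was -0.70, with 22 (78.6%) below all controls and again no edgeR call. The 6-library fit called 2 of these lower and DESeq2 7 (25%), against the same 1.15% and 3.36%. Unadjusted edgeR p-values were under 0.05 on the low side for 20 of them (71.4%) and for 37 of the spermatogenesis genes (67.3%). Over all genes tested that share was 11.2%. The eggshell gene cbd-1 had 62.3, 56.8 and 50.2 CPM in exposed worms, against 85.8, 80.8 and 105 CPM in controls, and the oocyte yolk receptor gene rme-2 had 39.1, 34.1 and 23.8 CPM, against 48.3, 47.8 and 60.8 CPM. In the list of 32 germ-line and meiosis genes asb-1 and iff-1 fell and the median was -0.41. Below all controls lay 20 of them (62.5%), against 18.3% of all genes. The adenine nucleotide carrier gene ant-1.4 had 25.8, 31.5 and 21.9 CPM, against 54.7, 51.2 and 66.9 CPM (edgeR adjusted p = 0.062), and the germ granule genes pgl-3 and deps-1 had -0.54 ± 0.13 and -0.59 ± 0.12. Not all of this list was low, since the Notch receptor gene glp-1, of the mitotic germ line, had 0.06 ± 0.15 and gld-2 had 0.04 ± 0.13.

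Library means placed the exposed samples apart for these lists. Relative to the control mean, the mean log2 level of the msp genes was -1.32, -0.83 and -1.84 in the 10000 ng/g libraries and -0.19, -0.49 and 0.68 in the control libraries. For oogenesis genes it was -0.52, -0.51 and -0.95, against -0.14, -0.18 and 0.32, and for germ-line genes -0.41, -0.32 and -0.50, against -0.18, -0.02 and 0.19. Exposed replicate 3 was the lowest and control replicate 3 the highest in each of these lists, and both lie at the ends of the first principal component. The 24 cell cycle and DNA replication genes had a median log2 fold change of -0.24. Below all controls lay 18 (75%), against 18.3% of all genes. None had an edgeR call. The 6-library fit called 2 lower, against 1.15% of its genes, and DESeq2 3 (12.5%), against 3.36% of all genes. At an unadjusted edgeR p under 0.05, 12 (50%) were lower, against 11.2% of all genes. Vitellogenins, the yolk proteins of the adult intestine, had -2.77, -0.64 and -2.37 in exposed libraries and 1.85, -1.67 and -0.17 in controls, with overlap, and vit-2 had a log2 fold change of -1.49 (95% interval -3.36 to 0.37). The highest library of the vitellogenins was control replicate 1 and their lowest exposed replicate 1, unlike in the gamete lists. Movement of these lists with each other was not tested.

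**Figure D3:**
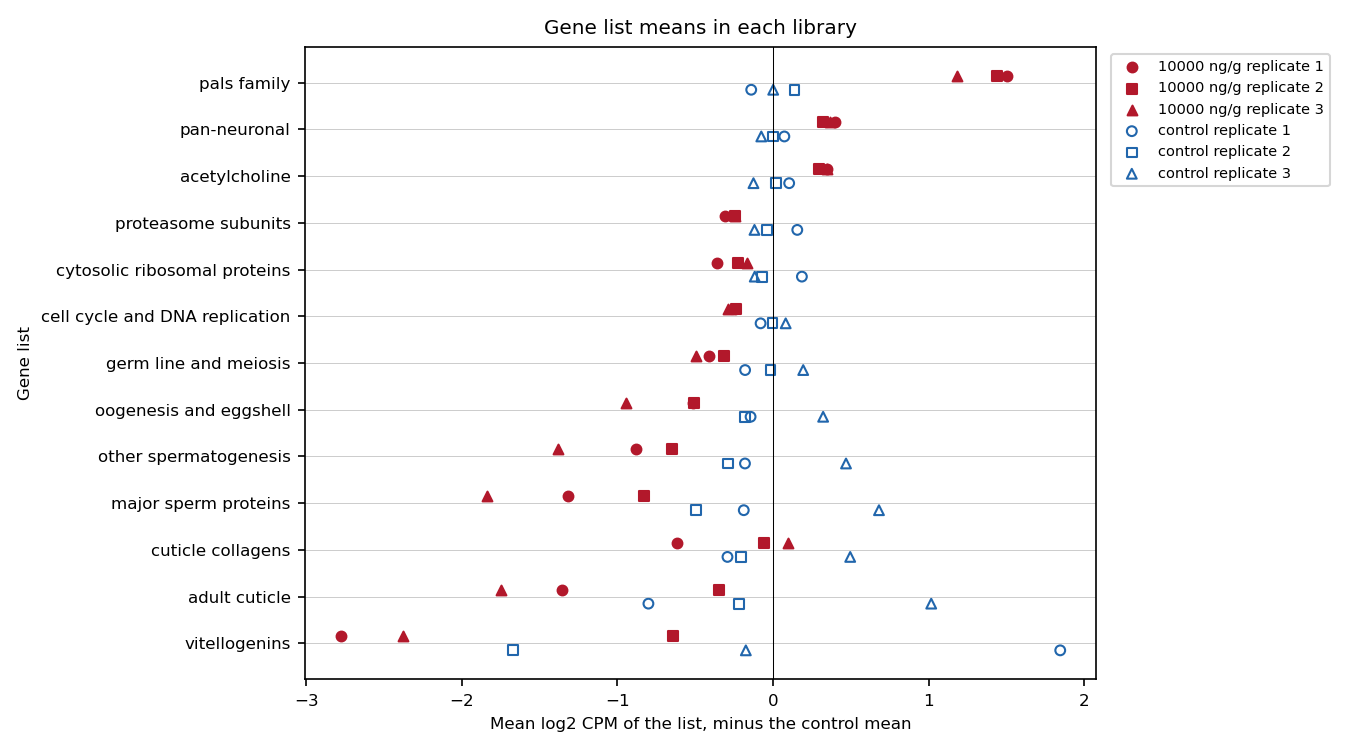
The mean log2 CPM of the genes of 13 lists in each library, minus the control mean (x axis), with 10000 ng/g libraries as filled red and control libraries as open blue symbols, 1 symbol shape per replicate number. The exposed libraries lie above the controls for the pals family and for the pan-neuronal and acetylcholine lists. They lie below the controls for the gamete, germ-line, cell cycle, proteasome and, narrowly, ribosomal protein lists. They overlap the controls for the cuticle collagens, adult cuticle genes and vitellogenins.

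Neuronal genes were higher in exposed worms, with no single edgeR call. Among 18 pan-neuronal genes, for synaptic vesicle release and transport, 15 (83.3%) lay above all controls, against 16% of all genes, at a median of 0.32 on the log2 scale. The kinesin gene unc-104, which carries synaptic vesicle precursors, had 72.6, 58.4 and 56.8 CPM, against 41.1, 32.8 and 36.2 CPM in controls (log2 fold change 0.77 ± 0.17, edgeR adjusted p = 0.0879). The synaptotagmin gene snt-1 had 28.4, 25.0 and 28.8 CPM, against 19.9, 18.4 and 18.9 CPM (0.52 ± 0.10, edgeR adjusted p = 0.0679), and the proprotein convertase gene egl-3, which cuts neuropeptide precursors, had 361, 374 and 342 CPM, against 264, 259 and 267 CPM. The synaptobrevin gene snb-1 and the clathrin adaptor gene unc-11 had -0.04 each, with overlapping groups. The 6-library fit called 6 of the 18 higher, against 1.52% of its genes, and DESeq2 8 (44.4%), against 3.28% of all genes. An unadjusted edgeR p under 0.05 was found for 10 (55.6%, against 9.35% of all genes). Over 98 neuropeptide genes the median was 0.27 and 36 lay above all controls (36.7%). Over 26 insulin-like peptide genes the median was 0.27, with 5 (19.2%) above.

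Genes of acetylcholine signalling, the system on which organophosphates are known to act, had a median log2 fold change of 0.28 over 20 genes. Above all controls lay 7 (35%), against 16% of all genes, with 0 below and no edgeR call. The 6-library fit called 1 of them higher, against 1.52% of its genes, and DESeq2 3 (15%), against 3.28% of all genes. An unadjusted edgeR p under 0.05 was found for 8 (40%, against 9.35% of all genes). Of the acetylcholinesterase genes, ace-1, the main form of muscle, had 43.9, 45.5 and 39.9 CPM in exposed worms, against 23.8, 29.1 and 33.0 CPM in controls (log2 fold change 0.59, 95% interval 0.26 to 0.92, edgeR adjusted p = 0.103, and 0.0482 in the 6-library fit). Gene ace-2 had 59.95 ± 4.70 CPM in exposed worms and 54.02 ± 3.50 CPM in controls (SD, n = 3), with overlap. At low levels ace-4 had 4.19, 2.82 and 3.33 CPM, against 1.77, 1.64 and 1.11 CPM (1.19, 95% interval 0.67 to 1.71, edgeR adjusted p = 0.0679), and ace-3 had 8.63 ± 0.286 and 7.15 ± 1.49 CPM. The choline acetyltransferase gene cha-1 and the choline transporter gene cho-1 had 0.38 ± 0.15 and 0.35 ± 0.13, without overlap, while the levamisole receptor subunits unc-29, unc-63 and lev-1 had 0.10, -0.03 and 0.13. The summed levels of neuron markers were higher in the same exposed libraries, and their part in these values was not tested.

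Ribosomal protein and proteasome genes had slightly negative medians. All 81 cytosolic ribosomal protein genes had negative log2 fold changes with a median of -0.25. Below all controls lay 56 (69.1%), against 18.3% of all genes. All 33 proteasome subunit genes were also negative, at a median of -0.26 with 27 (81.8%) below all controls, and no member of either list passed with edgeR. At an unadjusted edgeR p under 0.05, 4.94% of the ribosomal and 12.1% of the proteasome genes were lower, against 11.2% of all genes. The ribosomal share was thus below the background and the proteasome share near it. DESeq2 called 1 member of each list lower (1.23% and 3.03%), against 3.36% of all genes. The 16 inducible and constitutive cytosolic heat shock genes had a median of -0.52 with 4 (25%) below all controls, against 18.3% of all genes. None of them passed with edgeR. At an unadjusted edgeR p under 0.05, 1 (6.25%) was lower, under the 11.2% of all genes. Gene hsp-16.2 had 52.1, 39.6 and 34.1 CPM in exposed worms, against 141, 44.7 and 54.9 CPM in controls, where control replicate 1 alone was high, and hsp-70 had 78.3 ± 16.23 and 109 ± 41.8 CPM (SD, n = 3). The Hsp90 gene hsp-90 had 2343, 2428 and 2366 CPM, against 4060.0, 2843 and 2841 CPM. The unfolded protein response genes of the endoplasmic reticulum and of mitochondria had medians of -0.07 and -0.03, close to the -0.01 of all genes, with hsp-4 at -0.30, hsp-6 at -0.17 and hsp-60 at -0.41. Without control replicate 1 hsp-6 was at 0.026 and hsp-60 at 0.02247. The metallothionein genes mtl-1 and mtl-2 had 0.45 and 0.49, and over 24 antioxidant and metal response genes the median was 0.04, with no edgeR call and 3 (12.5%) higher at an unadjusted p under 0.05.

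**Figure D4:**
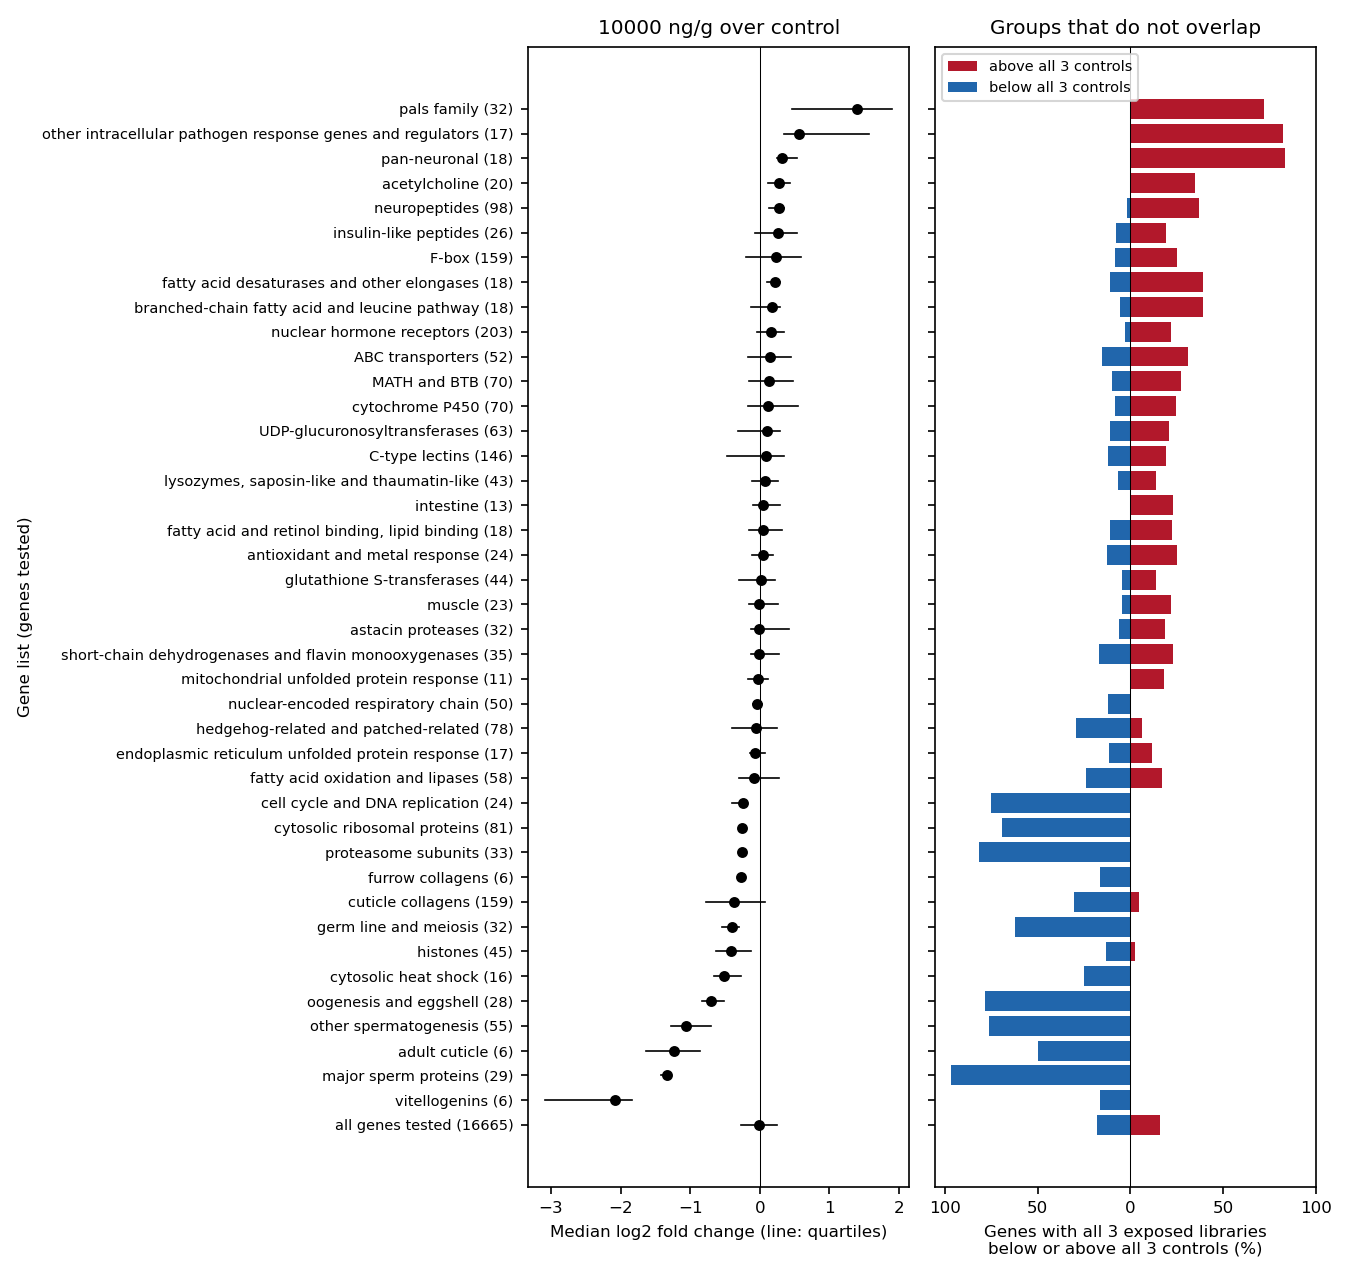
Left, the median log2 fold change, 10000 ng/g over control, of each gene list (point) with its quartiles (line). Right, the share of each list (percent) with all 3 exposed libraries above (red) or below (blue) all 3 controls. The bottom row gives all genes tested, at 16% above and 18.3% below, and the pals family and the major sperm proteins lie near opposite ends.

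Lists of defence and of other tissues gave few or no calls. Over 159 F-box genes the median log2 fold change was 0.23 and 40 (25.2%) lay above all controls, against 16% of all genes. Over 70 MATH and BTB genes the median was 0.14, with 19 (27.1%) above. Neither had an edgeR call, with 15.1% and 17.1% of members higher and 4.4% and 7.14% lower at an unadjusted p under 0.05, against 9.35% and 11.2% of all genes. The math-34 gene had 7.27, 6.90 and 7.38 CPM in exposed worms, against 1.66, 1.45 and 2.51 CPM in controls (edgeR adjusted p = 0.0817, and 0.0211 in the 6-library fit). Lysozymes and related antimicrobial genes had a median of 0.08 over 43 genes, hedgehog-related and patched-related genes of -0.06 over 78, astacin proteases of -0.01 over 32 and histones of -0.42 over 45, all without an edgeR call. Muscle genes had a median of -0.01 over 23, with the myosin heavy chain gene unc-54 at 5203 ± 521 CPM in exposed worms and 5251 ± 701 CPM in controls (SD, n = 3), and intestinal genes of 0.05 over 13, with the GATA factor gene elt-2 at 0.37 (95% interval 0.08 to 0.66) and nhr-49, a regulator of fat metabolism, at 0.18 (-0.03 to 0.39).

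The most abundant transcripts by CPM changed little. The elongation factor genes eef-1A.1 and eef-2 had log2 fold changes of -0.27 (95% interval -0.62 to 0.07) and -0.16 (-0.50 to 0.17), and rpl-3 had -0.23. The aspartic protease genes asp-1 and asp-6 had 0.15 and 0.17, the nucleotide carrier gene ant-1.1 had 0.09, and icl-1, for the enzyme of the glyoxylate cycle, had 0.09. The mitochondrially encoded cytochrome oxidase gene WBGene00010964 had 0.20 and the ribosomal RNA gene rrn-3.1 had -0.35, in RNA selected for poly(A). None of these 9 genes passed with edgeR.

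Several large differences were called by DESeq2 and not by the main edgeR fit of all 12 libraries. The pseudogene WBGene00008842, with a glycosyl hydrolase domain, had 36.0, 45.2 and 37.1 CPM in exposed worms, against 3.68, 5.48 and 11.04 CPM in controls (log2 fold change 2.55 ± 0.71, DESeq2 adjusted p = 0.0273, edgeR adjusted p = 0.119). At 400 ng/g its 3 libraries had an SD of 20.8 CPM around 18.1 CPM. Both the main edgeR fit and the DESeq2 fit used all 12 libraries, so this spread enters both. Why the calls of the fits differ was not tested. H39E23.3 had 82.9, 61.4 and 89.5 CPM, against 20.9, 24.2 and 6.27 CPM, and C13A2.3 had 3.17, 5.06 and 8.88 CPM, against 1.19, 1.405 and 1.68 CPM. The doublesex-related gene dmd-10, the LysM domain gene lmd-5 and F45D11.16 had log2 fold changes of 1.79, 1.91 and 1.74. On the low side were the phosphatase gene C47A4.3 (2.38, 2.19 and 1.95 CPM, against 5.78, 4.81 and 8.86 CPM in controls) and msp-45, ssp-10, msd-1, scrm-6, C27B7.6 and Y47G6A.26, with values of -1.56 to -1.48. The symbols F45D11.16 and msd-1 each occur more than once among the deposited gene names, and the values are those of WBGene00018461 and WBGene00009680. The edgeR fit of the 6 compared libraries alone called WBGene00008842, H39E23.3, C13A2.3, dmd-10, F45D11.16, C47A4.3, msd-1 and Y47G6A.26 (adjusted p of 0.0358 to 0.0482). That fit did not call lmd-5, msp-45, ssp-10, scrm-6 or C27B7.6.

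Levels at the lower doses are given beside those at 10000 ng/g for the genes past the threshold, without a test, since all doses share the controls. The genes were chosen for being high or low at 10000 ng/g, and the choice favours an extreme level there. In all 35 genes that rose the 10000 ng/g mean was the highest of the 4 group means, and in 30 of them every 10000 ng/g library lay above all 6 libraries of the lower doses. The mean level of gst-19 was 2.80 ± 0.247 CPM in controls, 3.55 ± 0.283 CPM at 400 ng/g, 4.77 ± 0.967 CPM at 2000 ng/g and 10.2 ± 1.34 CPM at 10000 ng/g (SD, n = 3 each). For ddn-1 the means were 5.33 ± 1.48, 6.52 ± 1.29, 8.29 ± 2.39 and 32.2 ± 6.67 CPM in the same order of doses. Both genes had their largest step between 2000 and 10000 ng/g.

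For asns-2 the means were 129 ± 10.99 CPM in controls, 178 ± 14.5 CPM at 400 ng/g, 202 ± 20.7 CPM at 2000 ng/g and 216 ± 20.3 CPM at 10000 ng/g, so most of the difference from control was present at the lowest dose. F58E6.4 had 2.16 ± 0.569, 6.03 ± 0.991, 3.58 ± 1.71 and 13.5 ± 1.63 CPM from control to the highest dose. The lectin gene clec-17 had 38.4 ± 5.04, 39.8 ± 5.27, 37.0 ± 8.09 and 78.7 ± 4.43 CPM, so the means of its lower doses lay within the range of the controls. Of the genes that fell, asb-1 had 140.2 ± 4.66, 111.96 ± 9.07, 126 ± 9.40 and 93.2 ± 4.22 CPM, and M05D6.1 had 4.09 ± 1.91, 1.58 ± 0.317, 1.02 ± 0.351 and 0.804 ± 0.244 CPM. In 6 of the 7 genes that fell every 10000 ng/g library lay below all libraries of the lower doses.

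**Figure D5:**
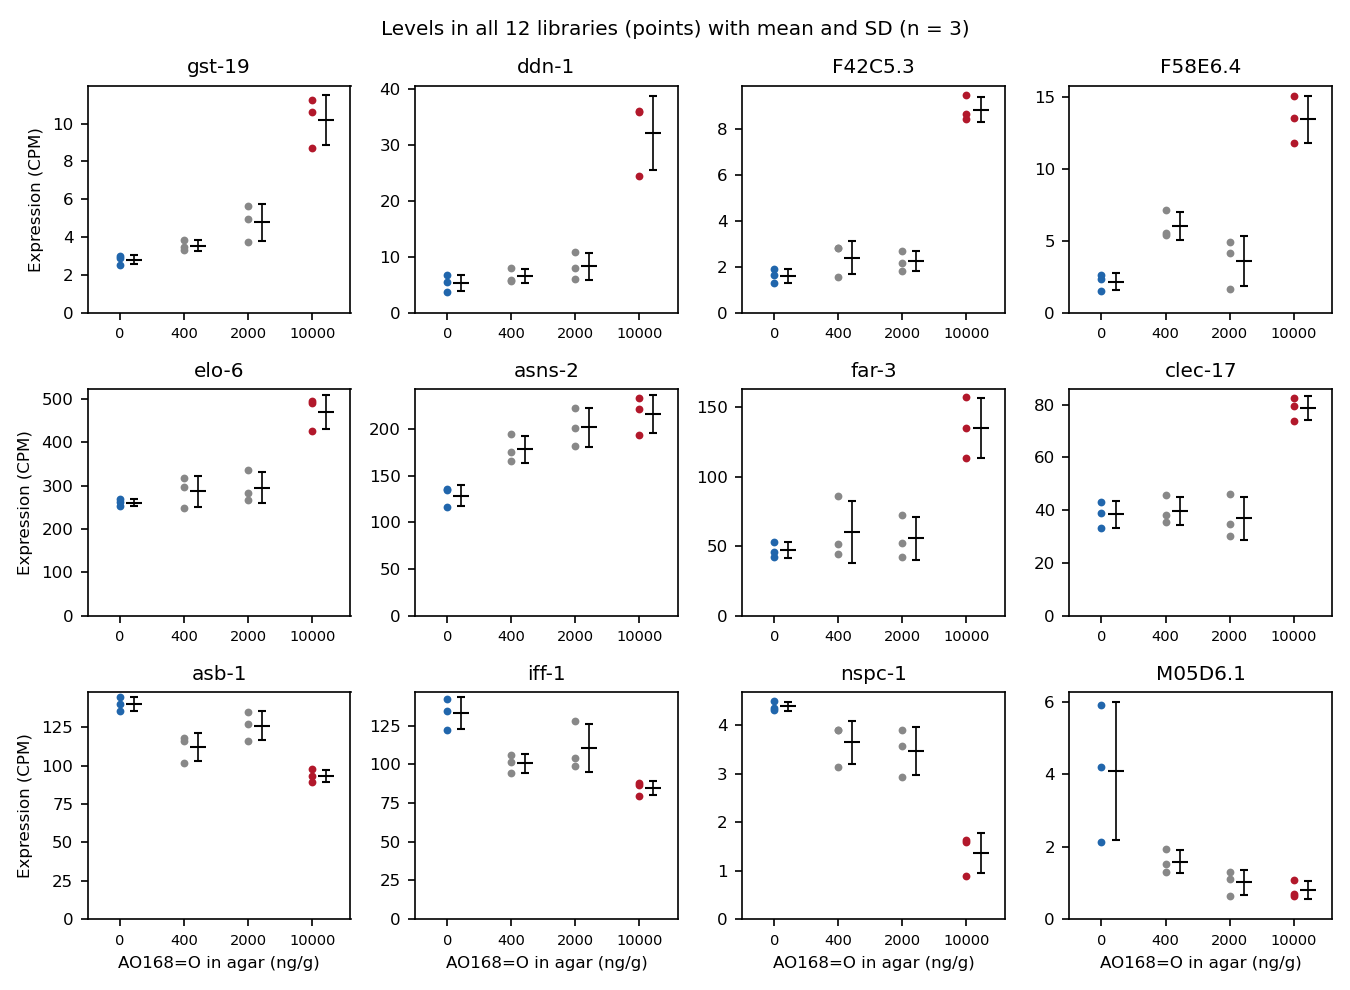
Level in CPM (y axis) of 12 genes past the threshold at 10000 ng/g against the AO168=O concentration in the agar (x axis, 0 to 10000 ng/g, evenly spaced categories). Points are single libraries, red at 10000 ng/g, blue in controls and grey between, and bars give the mean and SD of 3 libraries. The levels of gst-19, ddn-1, F42C5.3 and clec-17 separate from the rest at 10000 ng/g, while asns-2 is already above the controls at 400 ng/g.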

How the data were processed

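Poly(A) RNA of whole worms was sequenced as 150-base read pairs, per the labels' protocols. The submitters' processing notes name HISAT2 2.2.1 and featureCounts 2.0.6, besides CASAVA and DESeq2 1.42.0. Settings, strand use and build were looked for and not given in the sources used. Coordinates are those of the deposited table, and 46926 of 46987 features have the same position in WBcel235, Ensembl release 115. The authors deposited raw counts per gene, used for every test, and FPKM values, which follow from the counts and gene lengths and were used only as a check.

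Counts were fitted in R 4.3.3 with edgeR 4.0.16 (TMM scaling, filterByExpr, quasi-likelihood test, 2-sided, Benjamini-Hochberg adjustment over 16665 genes, threshold 0.05), with 1 mean per group over all 12 libraries. A ± beside a log2 fold change is its SE. The p-values measure the spread between these libraries. An exact permutation test of 3 against 3 libraries could not go below 0.1 and was not run for single genes. The steps were tested on simulated counts. No 2 libraries within the 10000 ng/g or the control group agreed within counting noise. Alternatives were other scalings, no filter, DESeq2 1.42.0, the 6 libraries alone, a replicate block, a minimum change of 1.5-fold and leaving out each library.

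The gene lists and the genes compared were chosen with earlier results of these data known. Named were all genes past the threshold, chosen marker genes and the 10 most abundant genes. Also named were the largest non-overlapping changes at 5 CPM or more called by DESeq2 but not by edgeR over all 12 libraries. List members called by both other fits or typical of their list were named too, picked after their values were seen. Each compared library held at least 36897811 counts, and genes below 1 CPM still rest on few reads, where counting error is a large part of the interval.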

Additional observations from a re-analysis of the deposited data

How the results depend on the processing

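Against 35 higher and 7 lower genes, RLE size factors gave 39 and 7 and testing without a low-count filter 35 and 8. Library totals gave 14 and 2 (15 of the 42 kept), DESeq2 546 and 560, the 6 libraries alone 245 and 186, a replicate block 12 and 0 (12 of the 42 kept, none that fell), and a minimum change of 1.5-fold 6 and 0. Leaving out 1 library gave 4 to 336 higher and 0 to 187 lower genes. Deviations of same-numbered libraries from their group means had correlations of 0.073, -0.126 and -0.0966. Those of unlike-numbered libraries ran from -0.118 to 0.202. These values show no sign of pairing by number but cannot exclude it. With library totals the median log2 fold change was 0.14 for C-type lectins, 0.10 for lipid binding and -0.0311 for fatty acid oxidation genes. Leaving out 1 library moved medians over these ranges: pals family 1.145 to 1.564, other pathogen response genes 0.5249 to 0.6813, pan-neuronal 0.3042 to 0.4367, acetylcholine 0.2156 to 0.4273, ABC transporters 0.08946 to 0.2557, P450 0.1028 to 0.2498, dehydrogenases and monooxygenases -0.0487 to 0.1012, lipid binding 0.0211 to 0.1053, fatty acid oxidation -0.09108 to 0.05242, intestine -0.01127 to 0.1392, respiratory chain -0.1124 to 0.08983, endoplasmic reticulum response -0.1536 to 0.1435, heat shock -0.6933 to -0.2234, histones -0.6397 to -0.07837 and proteasome -0.3245 to -0.151. Some values changed sign, among them hsp-60 (-0.41) and ugt-22 (-0.50), which were not near 0. Gene unc-54 was 0.04528 with library totals and 0.006004 in the 6 libraries. Without 1 library, unc-54 ranged over -0.1033 to 0.1181, asb-2 -0.07543 to 0.1568, gas-1 -0.04933 to 0.2332, iff-2 -0.1801 to 0.09741, cyp-35A2 -0.2602 to 0.02031, ugt-22 -0.7742 to 0.06179, gcs-1 -0.03971 to 0.103, hsp-6 -0.2699 to 0.026, hsp-60 -0.6389 to 0.02247 and icl-1 -0.07674 to 0.3329. The cause was not tested. The biological coefficient of variation was 24.1%, and depth was not varied.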
